A study of Ovis aries with 15 samples.

Results

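Ammonia and bicarbonate handling was described through 7 genes of the sheep kidney, GLUD1, GLUL, SLC38A3, SLC4A4, SLC9A3, CA2 and CA4, which were taken by their symbols from the 25592 genes with a deposited read count and FPKM (fragments scaled to the length of the transcript and the depth of the library). All 7 were found, and all 7 passed the filter on low values, an FPKM of 1 or more in 5 or more libraries, which left 13162 genes in all. The animals were male Dorper × Small-tailed Han crossbred sheep of 4 months, fed for 21 d and housed in pairs. The CON group received the basal diet, the AFB1 group the same diet with 500 μg/kg DM (dry matter) of aflatoxin B1, and the AFB1_CUR group that AFB1 dose with 800 mg/kg DM of curcumin (CUR). Aflatoxin B1 is a mold toxin and CUR a plant polyphenol. Poly(A) RNA of the kidney was sequenced from 5 sheep per group, 15 libraries in all, and which region of the kidney was taken for RNA is not given in the sources used here. No group received CUR alone, so CUR was measured only on top of AFB1.

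The kidney makes ammonia from glutamine and returns new bicarbonate to the blood. SLC38A3 (SNAT3) brings glutamine into the proximal tubule cell across its basolateral side, and GLUD1, the mitochondrial glutamate dehydrogenase, can release ammonium from the glutamate made of it. GLUL, glutamine synthetase, runs the other way and binds ammonia to glutamate. SLC9A3 (NHE3) exchanges luminal sodium for protons, CA4 is the membrane-bound and CA2 the cytosolic carbonic anhydrase that interconvert carbon dioxide and bicarbonate, and SLC4A4 (NBCe1) carries bicarbonate out to the blood side. In rodents an acid load raises SLC38A3 and lowers GLUL in the proximal tubule.

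One library went against its tissue label. In the library labelled AFB1 replicate 1 the mean log2(FPKM + 1) of 12 hepatocyte markers was 10.6, against 1.82 to 3.31 in the other 14 libraries, the score of 8 proximal tubule markers was 3.03 against 7.03 to 8.73, and that of 9 loop and collecting duct markers was 0.54 against 4.96 to 6.06. Albumin (ALB) reached an FPKM of 25681 there and at most 23.9 elsewhere. This library is called liver-like here, is shown apart, and stays out of the fits over 14 libraries, and values over all 15 libraries are given where they change a call, turn a direction or move a fitted difference widely. In AFB1 replicate 2 and AFB1_CUR replicate 2, called leukocyte-rich here, the leukocyte score was 4.37 to 5.20 against 1.56 to 2.97 in the other 12 kidney libraries, the adrenal score 0.95 to 1.61 against 0.11 to 0.29, and the proximal tubule score 7.03 to 7.32 against 7.46 to 8.73. The total counts of all 15 libraries lay between 50255295 and 68747047.

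By FPKM, which is scaled to gene length and so allows levels of different genes to be set side by side, the 7 genes covered a wide range. In CON the mean level was 592 ± 78.5 for CA2 (SD, n = 5), which ranked 56 among all genes, 138 ± 39.3 for GLUD1, 138 ± 28.9 for GLUL, 77.7 ± 19.6 for CA4, 63.7 ± 8.78 for SLC9A3, 26.5 ± 9.96 for SLC4A4 and 7.41 ± 1.33 for SLC38A3, which ranked 6053. Over the 14 kidney libraries, 5 of the 6 steps in this order had a mean paired difference apart from 0 (two-sided exact sign-flip permutation test, adjusted p at most 0.00234). The order tested was taken from the same values. Of these steps, CA4 over SLC9A3 held in 12 of 14 libraries (mean log2 difference 0.59 ± 0.57, SD, n = 14). CON replicates 1 and 5 went the other way. The step whose mean was not apart from 0 was that from GLUD1 to GLUL. There GLUD1 was higher in 8 of 14 libraries by a mean log2 difference of 0.09 ± 0.62 (SD, n = 14, exact permutation p = 0.608). The cytosolic carbonic anhydrase thus stood above every other gene of the group, and the glutamine transporter below. The smallest count behind any of these values in the 14 libraries was 1521, for SLC38A3, so counting error is small beside the spread between sheep.

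**Figure D1:**
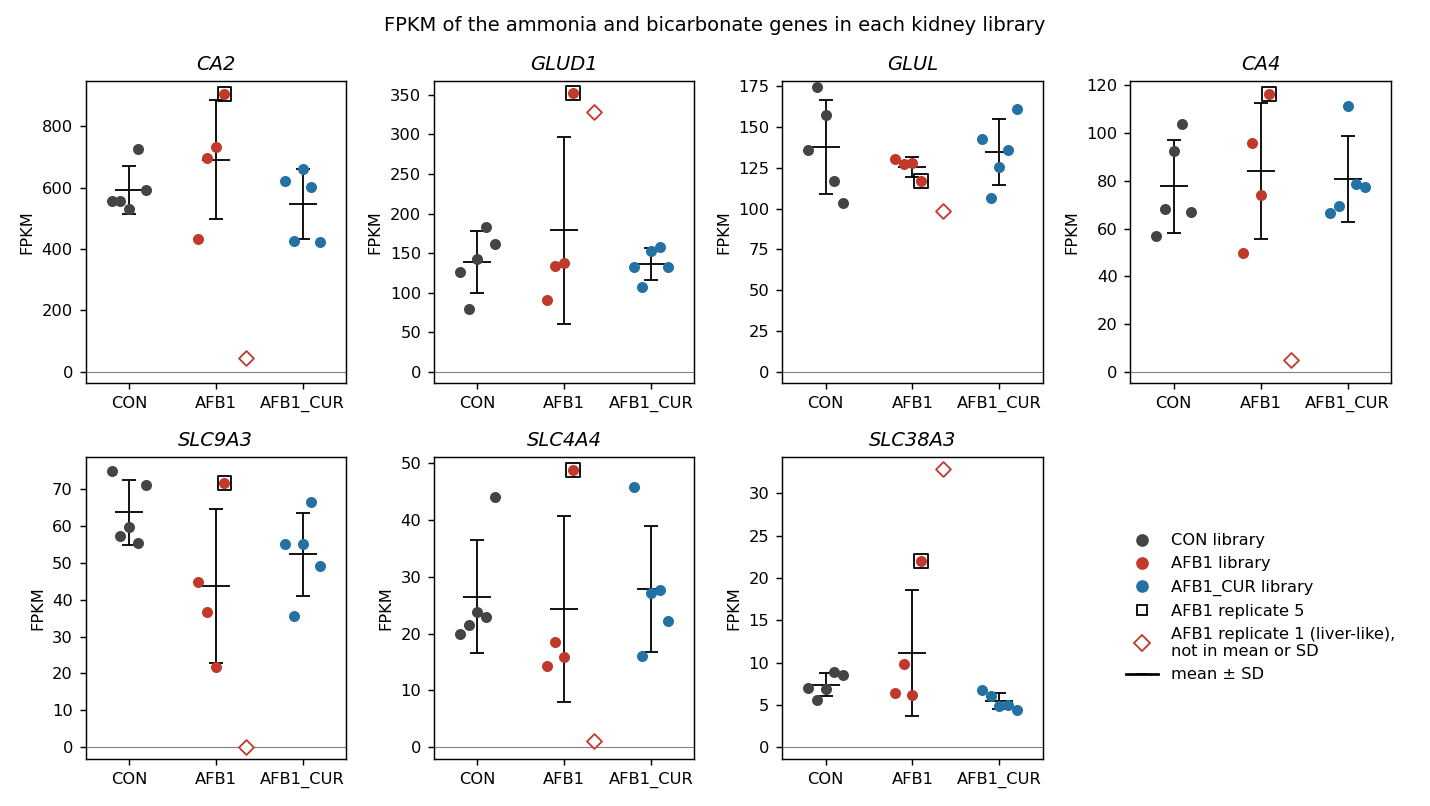
FPKM (y axis, linear) of each gene in the libraries of the CON, AFB1 and AFB1_CUR groups (x axis); filled points are libraries, the bar and whiskers give the mean ± SD without the liver-like AFB1 replicate 1 (open diamond), and the open square marks AFB1 replicate 5. For SLC38A3 the square lies at 22.1 while the other 13 kidney libraries lie between 4.46 and 9.80, and for SLC9A3 the diamond lies at 0.063.

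The first question of the design was what AFB1 in the diet did to these genes. Compared with the CON group, 0 of the 7 genes were called in the AFB1 group at the screening thresholds of the study, an unadjusted p under 0.05 with a fold change over 1.5, where 1.76% of the 13162 genes tested were called. The median log2 fold change of the 7 was 0.13, beside 0.016 over all genes tested. SLC38A3 had the largest log2 fold change among them, 0.62 (SE 0.34, edgeR's quasi-likelihood test, unadjusted p = 0.0934, adjusted p = 0.957), and SLC9A3 was next with -0.53 (SE 0.30, unadjusted p = 0.105, adjusted p = 0.957). With all 15 libraries, SLC38A3 was the single gene of the 7 called, at 1.42 (SE 0.51, unadjusted p = 0.0140, adjusted p = 0.596), where 4.84% of all genes tested were called. The kidney libraries of AFB1 and CON overlapped for all 7 genes, where 1.54% of the genes tested did not overlap.

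The second question was whether CUR altered the kidney of AFB1-fed sheep. Compared with the AFB1 group, SLC38A3 was lower in the AFB1_CUR group, with a log2 fold change of -1.14 (SE 0.35, edgeR, unadjusted p = 0.00532, adjusted p = 0.99999), and it was the 1 gene of 7 called, where 0.935% of the genes tested were called and 0.524% were called lower. All 7 overlapped between these groups, where 0.676% of the genes tested did not overlap. Without AFB1 replicate 5 the difference was -0.48 (unadjusted p = 0.0379) and the fold no longer exceeded 1.5. With all 15 libraries both SLC38A3 (-1.93, SE 0.51, unadjusted p = 0.00206) and GLUD1 (-0.95, SE 0.44, unadjusted p = 0.0483) were called lower, where 3.98% of all genes tested were called, and both adjusted p values were 0.785. Between AFB1_CUR and CON, 0 of the 7 were called, where 1.63% of the genes tested were called, and 0 again with all 15 libraries, where 0.993% were. All 7 overlapped between these groups, where 0.722% of the genes tested did not. SLC38A3 had the largest difference with -0.52 (SE 0.33, unadjusted p = 0.135). The comparisons share libraries, so their values are not independent of each other. After Benjamini-Hochberg adjustment edgeR called 0 genes of all those tested in each comparison, where 664, 303 and 723 genes had an unadjusted p under 0.05, while DESeq2 on the same counts called 17, 3 and 1, none of them among the 7.

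**Figure D2:**
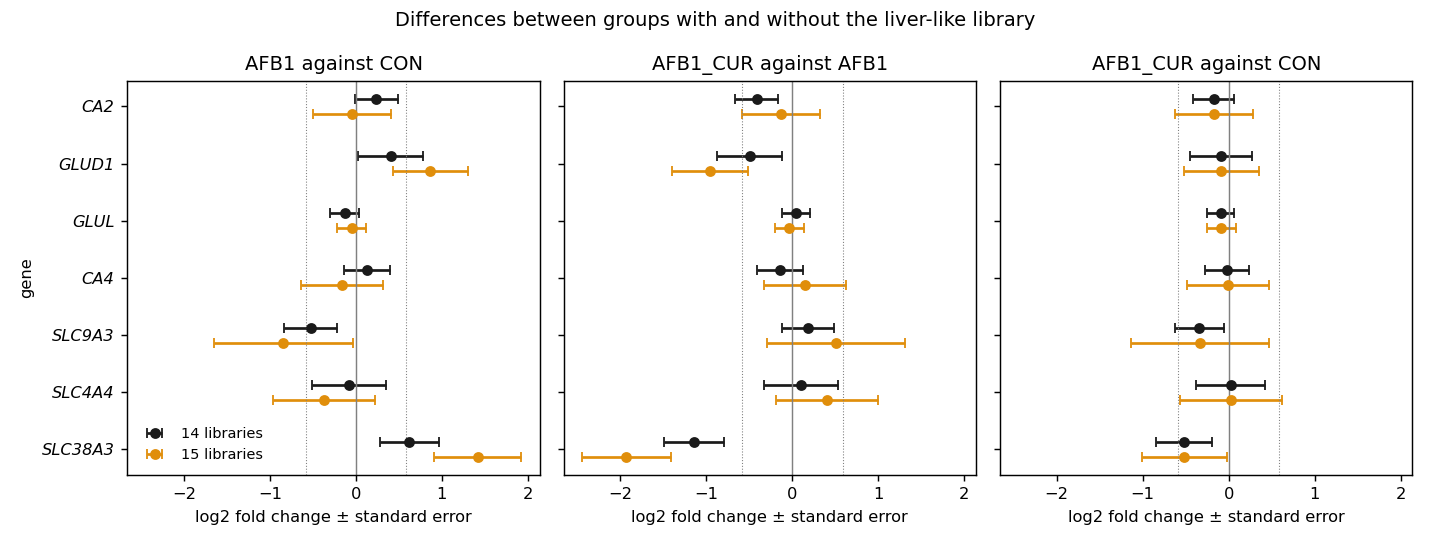
log2 fold change ± standard error (x axis, edgeR) of each gene (y axis) in the 3 comparisons, fitted to 14 libraries (black) and to all 15 (orange); dotted lines mark a fold of 1.5 in either direction. SLC38A3 in AFB1_CUR against AFB1 lies at -1.14 with 14 libraries and at -1.93 with 15.

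Of the genes of glutamine uptake and ammonia release, SLC38A3 (chromosome 19, 50185570 to 50200419, minus strand; coordinates as in the deposited annotation, whose genome build is not given in the sources used here) had an FPKM of 7.02, 5.61, 6.95, 8.86 and 8.59 in CON replicates 1 to 5. In AFB1 replicates 2 to 5 it was 6.42, 9.80, 6.23 and 22.1, and 32.9 in the liver-like library. In AFB1_CUR replicates 1 to 5 it was 6.78, 6.04, 4.91, 5.05 and 4.46. AFB1 replicate 5 stood far above all other kidney libraries, and 3 AFB1_CUR libraries lay below every CON and AFB1 library, while the other 2 lay among them. Without AFB1 replicate 5 the log2 fold change of AFB1 against CON was -0.04 (unadjusted p = 0.841), and it reached 0.84 with another library left out. SLC38A3 was called higher in AFB1 without AFB1 replicate 2 or 4, beside 1.69% of all genes tested in each fit. It was also called higher with the proximal tubule score as a covariate, beside 2.57%.

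GLUD1 (chromosome 25, 40640653 to 40679694, minus strand) had an FPKM of 126, 79.5, 142, 183 and 162 in CON replicates 1 to 5. In AFB1 replicates 2 to 5 it was 91.0, 133, 138 and 353, in the liver-like library 328, and in AFB1_CUR replicates 1 to 5 it was 133, 107, 153, 158 and 132. As with SLC38A3, AFB1 replicate 5 was the highest kidney library, and the AFB1_CUR libraries lay within the range of CON. The log2 fold change was 0.40 (SE 0.38) in AFB1 against CON, was 0.87 (SE 0.44, edgeR, unadjusted p = 0.0689) with all 15 libraries, turned to -0.25 without AFB1 replicate 5, and was -0.49 (SE 0.38) in AFB1_CUR against AFB1. An annotated copy, LOC114108602, described as a mitochondrial glutamate dehydrogenase 1 on chromosome X, can share reads with GLUD1. Its FPKM was 0.21 to 0.55 times that of GLUD1 over the 14 libraries, and with the counts of both summed the AFB1 against CON value was 0.42, beside 0.40 for GLUD1 alone, whose level is uncertain to the extent that reads were split.

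GLUL (chromosome 12, 62912981 to 62923557, minus strand), the enzyme that consumes ammonia, varied least. It had an FPKM of 136, 174, 158, 117 and 104 in CON replicates 1 to 5, of 130, 127, 128 and 117 in AFB1 replicates 2 to 5, and of 143, 107, 125, 136 and 161 in AFB1_CUR replicates 1 to 5. The AFB1 libraries all fell inside the CON range, and the liver-like library, at 98.7, was just below the lowest kidney library. The log2 fold change was -0.13 (SE 0.16) in AFB1 against CON and 0.04 (SE 0.16) in AFB1_CUR against AFB1, and the second was -0.034 with all 15 libraries. The coefficient of variation over the 14 libraries was 15.4%, the smallest of the 7 genes, against 56.6% for SLC38A3.

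Of the transporters of bicarbonate reclamation, SLC9A3 (chromosome 16, 71652463 to 71691855, plus strand) had an FPKM of 75.0, 57.2, 59.8, 55.5 and 71.2 in CON replicates 1 to 5. In AFB1 replicates 2 to 5 it was 44.7, 36.8, 21.7 and 71.6, and in AFB1_CUR replicates 1 to 5 it was 55.2, 35.7, 55.0, 66.4 and 49.0. AFB1 replicates 2, 3 and 4 lay below every CON library and AFB1 replicate 5 inside the CON range, so the groups overlapped through that 1 library. Without AFB1 replicate 5, SLC9A3 was called lower in AFB1 than in CON, with a log2 fold change of -0.96 (edgeR, unadjusted p = 0.00237, adjusted p = 0.678), and higher in AFB1_CUR than in AFB1 (0.61, unadjusted p = 0.0290). With all 15 libraries the differences were -0.85 (SE 0.81) and 0.51, and neither was called. In the fit without AFB1 replicate 5, 454 of 13135 genes (3.46%) were called between AFB1 and CON, 241 of them lower (1.83%), in place of 232, and 221 (1.68%) between AFB1_CUR and AFB1 in place of 123. limma on log2(FPKM + 1) called it lower in AFB1 with all 4 kidney libraries kept (-0.65, unadjusted p = 0.0279), where 0.798% of the genes tested were called. AFB1 replicates 2, 3 and 4 also had proximal tubule scores of 7.32, 7.67 and 7.46, below the lowest CON score of 7.83, and AFB1 replicate 5 one of 8.49. With that score as a covariate the difference between AFB1 and CON was -0.29 (unadjusted p = 0.195). In bulk tissue, fewer cells of a type and less RNA per cell cannot be told apart.

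SLC4A4 (chromosome 6, 87180748 to 87551334, plus strand) resembled SLC9A3 in the place of AFB1 replicates 2, 3 and 4, but not of AFB1 replicate 5. Its FPKM was 20.0, 21.6, 23.8, 22.9 and 44.1 in CON replicates 1 to 5, 14.3, 18.5, 15.9 and 48.8 in AFB1 replicates 2 to 5, and 45.7, 16.1, 27.2, 27.8 and 22.2 in AFB1_CUR replicates 1 to 5. Each group held 1 library at 44.1 or above. AFB1 replicates 2, 3 and 4 were below every CON library, and AFB1 replicate 5 was above every CON library. The fitted differences were small beside their errors, -0.08 (SE 0.43) in AFB1 against CON, 0.10 (SE 0.43) in AFB1_CUR against AFB1 and 0.02 (SE 0.40) in AFB1_CUR against CON. With all 15 libraries the first was -0.37 (SE 0.60, edgeR, unadjusted p = 0.544) and the second 0.40. Without AFB1 replicate 5 they were -0.75 (unadjusted p = 0.0539) in AFB1 against CON, which was not called, and 0.78 (unadjusted p = 0.0479) in AFB1_CUR against AFB1, which was. With the proximal tubule score as a covariate and all 14 libraries, the first turned to 0.30 (unadjusted p = 0.135).

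CA2 (chromosome 9, 89955879 to 89972904, minus strand) had an FPKM of 557, 555, 530, 727 and 593 in CON replicates 1 to 5, of 432, 698, 731 and 904 in AFB1 replicates 2 to 5, and of 622, 426, 662, 603 and 421 in AFB1_CUR replicates 1 to 5. The lowest AFB1 library was the leukocyte-rich AFB1 replicate 2, and the highest was AFB1 replicate 5. The log2 fold change was 0.24 (SE 0.25) in AFB1 against CON and -0.41 (SE 0.25) in AFB1_CUR against AFB1, the latter called only when AFB1 replicate 2 was left out (-0.61, unadjusted p = 0.0184), where 261 genes were called in place of 123. CA2 is also made by intercalated cells of the collecting duct and by red blood cells, so its level does not belong to the proximal tubule alone. CA4 (chromosome 11, 12507631 to 12515358, minus strand) had an FPKM of 56.7, 68.4, 92.3, 104 and 67.1 in CON replicates 1 to 5, of 49.7, 95.8, 74.3 and 116 in AFB1 replicates 2 to 5, and of 66.4, 69.6, 111, 78.7 and 77.5 in AFB1_CUR replicates 1 to 5. The groups lay over one another, with log2 fold changes of 0.13 (SE 0.27), -0.14 (SE 0.27) and -0.02 (SE 0.26) in the 3 comparisons. Over all 15 libraries the AFB1 against CON value turned to -0.043 for CA2 and -0.16 for CA4, and that of AFB1_CUR against AFB1 to 0.15 for CA4.

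AFB1 replicate 5 carried the highest value of 5 of the 7 genes among the 14 kidney libraries, while it held the highest value of 6.02% of all genes tested and the lowest value of 24%, the largest such share of any of the 14. Its FPKM was 3.44 times the median of the other 13 for SLC38A3, 2.65 times for GLUD1, 2.19 times for SLC4A4, 1.57 times for CA4 and 1.53 times for CA2. SLC9A3 was second highest there at 1.30 times, and GLUL ranked 12 of 14 at 0.90 times. PCK1, the gluconeogenic enzyme that takes up the carbon left by ammonia formation, was at 1913 against 569 to 1578. The hepatocyte score of this library was 2.36, inside the range of the other kidney libraries (1.82 to 3.31), so the liver markers of AFB1 replicate 1 were not raised in it. The library did stand apart in its segment markers. Its proximal tubule score of 8.49 was the second highest of the 14, against 7.32 to 7.67 in the other kidney libraries of AFB1, and its loop and collecting duct score of 5.06 was the second lowest, against 5.55 to 5.91. Its podocyte score of 4.16 and endothelial score of 4.16 were the lowest of the 14. Whether these shifts have a part in its high values was not tested.

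**Figure D3:**
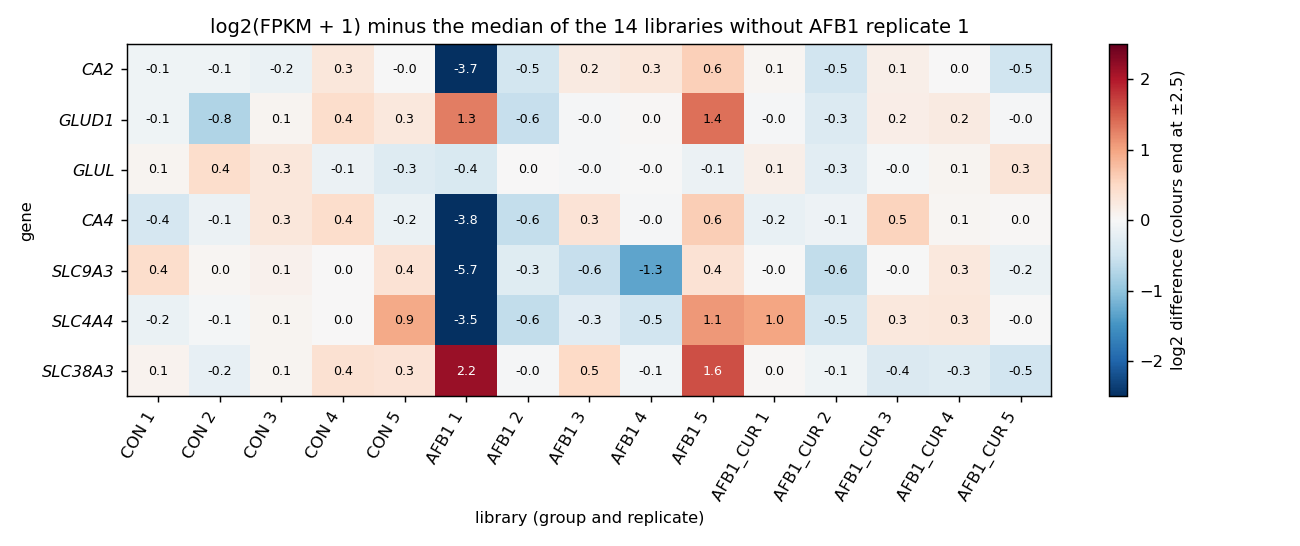
log2(FPKM + 1) of each gene (rows) in each library (columns) minus the gene's median over the 14 kidney libraries; red is above and blue below that median, and colours end at ±2.5. AFB1 replicate 5 is red for every gene but GLUL, and AFB1 replicate 1 is dark blue for CA2, CA4, SLC9A3 and SLC4A4 and red for GLUD1 and SLC38A3.

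The liver-like library separated the 7 genes into 3 kinds. SLC9A3 was 879-fold below the median of the 14 kidney libraries, SLC4A4 21.3-fold, CA4 16.3-fold and CA2 13.1-fold. SLC38A3 was 4.98 times and GLUD1 2.42 times that median, and GLUL 0.77 times. GLS2, the liver-type glutaminase, chosen after its values were seen, had an FPKM of 86.9 there against a CON mean of 2.35. For SLC38A3 and GLUD1 the liver-like library therefore added to the AFB1 mean, which was 15.5 ± 11.7 for SLC38A3 with it (SD, n = 5) and 11.1 ± 7.48 without it (SD, n = 4), and for the 4 genes of bicarbonate handling it lowered that mean.

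The 7 genes were then compared with each other over the 14 kidney libraries. All 21 pairs were tested on log2(FPKM + 1), and 7 had an adjusted p of 0.0402 (two-sided permutation test of Pearson's r, 100000 resamples), all 7 positive. GLUD1 took part in 4 of them, with SLC38A3 (r = 0.73, rho = 0.42), CA2 (r = 0.72, rho = 0.67), CA4 (r = 0.70, rho = 0.68) and SLC4A4 (r = 0.65, rho = 0.67). The other pairs were SLC38A3 with CA2 (r = 0.66, rho = 0.50), CA2 with CA4 (r = 0.65, rho = 0.53) and SLC4A4 with SLC9A3 (r = 0.63, rho = 0.65). Their unadjusted permutation p values ran from 0.00309 to 0.0134 for r and from 0.00890 to 0.136 for rho. After leaving out the 2 libraries farthest from the median of the first gene, r was 0.19 for GLUD1 with SLC38A3 and 0.34 for SLC38A3 with CA2, so these relations rest on those libraries, AFB1 replicate 5 with CON replicate 2 and AFB1 replicate 5 with AFB1 replicate 3. It stayed between 0.56 and 0.69 for the other 5 pairs. GLUL had a negative r with 5 of the other 6 genes, the lowest being -0.43 with SLC38A3 and -0.43 with GLUD1, and 0 of its pairs passed. With Spearman's rho, and without any one of AFB1 replicate 2, AFB1 replicate 5, CON replicate 4 or AFB1_CUR replicate 2, 0 of the 21 pairs passed. With the group means removed, r of the 7 pairs lay between 0.57 and 0.81 and 8 pairs passed. SLC38A3 with CA2 no longer did (permutation test of r, adjusted p = 0.0657), while SLC38A3 with SLC4A4 (r = 0.76, permutation test, adjusted p = 0.0148) and SLC4A4 with CA2 (r = 0.63, permutation test, adjusted p = 0.0378) did. With all 15 libraries 5 pairs passed, and 4 of the 7 pairs turned negative, GLUD1 with SLC4A4 (r = -0.21), CA2 (r = -0.33) and CA4 (r = -0.33), and SLC38A3 with CA2 (r = -0.55).

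**Figure D4:**
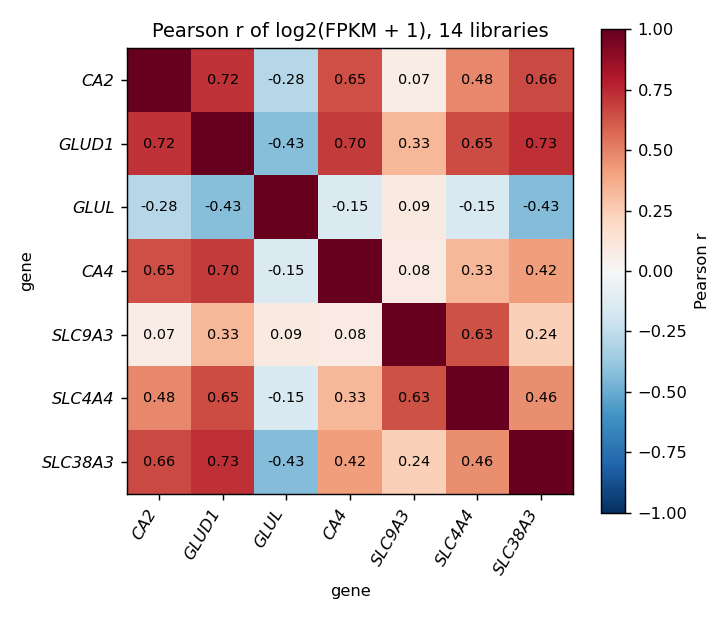
Pearson's r of log2(FPKM + 1) between each pair of genes (rows and columns) over the 14 kidney libraries; red is positive and blue negative. GLUD1 and SLC38A3 share the highest r, 0.73, and GLUL is the one gene with mostly negative values, down to -0.43.

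The piece of kidney taken can hold more or less of a nephron segment, so each gene was set against the scores of the proximal tubule and of the loop and collecting duct. Of these 14 relations 3 passed at an adjusted p under 0.05. SLC4A4 rose with the proximal tubule score (r = 0.86, permutation p = 0.00011, rho = 0.86, permutation p = 0.00025, adjusted p = 0.00154), and r was 0.84 without the 2 libraries with the most extreme scores. SLC9A3 did so with r = 0.73 (permutation p = 0.00246, rho = 0.74, permutation p = 0.00329, adjusted p = 0.0155) and 0.68 without those libraries. GLUL rose with the loop and collecting duct score (r = 0.73, permutation p = 0.00333, rho = 0.74, permutation p = 0.00392, adjusted p = 0.0155), and r was 0.59 without the 2 most extreme libraries. Within groups, that is after removing the group means, r was 0.89, 0.67 and 0.74. GLUD1 and SLC38A3 did not pass against the proximal tubule score, with r = 0.61 (adjusted p = 0.0678) and 0.37 (adjusted p = 0.280) over the 14 libraries. Against the loop and collecting duct score, all 6 genes other than GLUL had a negative r that did not pass over 14 libraries, GLUD1 (r = -0.57, rho = -0.55, adjusted p = 0.0982), SLC38A3 (r = -0.52, rho = -0.36, adjusted p = 0.136), CA2 (r = -0.46, rho = -0.49, adjusted p = 0.163), CA4 (r = -0.45, rho = -0.40, adjusted p = 0.163), SLC4A4 (r = -0.32, rho = -0.43, adjusted p = 0.339) and SLC9A3 (r = -0.011, rho = -0.029, adjusted p = 0.970). Without the 2 most extreme libraries, AFB1_CUR replicates 2 and 5, r was in the same order -0.94, -0.65, -0.84, -0.72, -0.64 and -0.22. Without AFB1_CUR replicate 2 alone, 9 of the 14 relations passed (permutation test of r), among them lower levels at a higher loop and collecting duct score for CA2 (r = -0.89, adjusted p = 0.00077), GLUD1 (r = -0.83, adjusted p = 0.00313), SLC38A3 (r = -0.70, adjusted p = 0.0192), CA4 (r = -0.62, adjusted p = 0.0471) and SLC4A4 (r = -0.59, adjusted p = 0.0493), and the rise of GLUD1 with the proximal tubule score (r = 0.59, adjusted p = 0.0478). With group means removed 7 passed (permutation test of r), the 3 above and 4 more. These were GLUD1 (r = 0.74, adjusted p = 0.0124), CA2 (r = 0.68, adjusted p = 0.0205) and SLC38A3 (r = 0.62, adjusted p = 0.0364) with the proximal tubule score, and SLC38A3 with the loop and collecting duct score (r = -0.72, adjusted p = 0.0127). Over all 15 libraries 7 passed as well. There r with the proximal tubule score turned to -0.34 for GLUD1, -0.60 for SLC38A3 and 0.40 for GLUL, and r with the loop and collecting duct score turned to between 0.81 and 0.93 for SLC4A4, SLC9A3, CA2 and CA4.

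**Figure D5:**
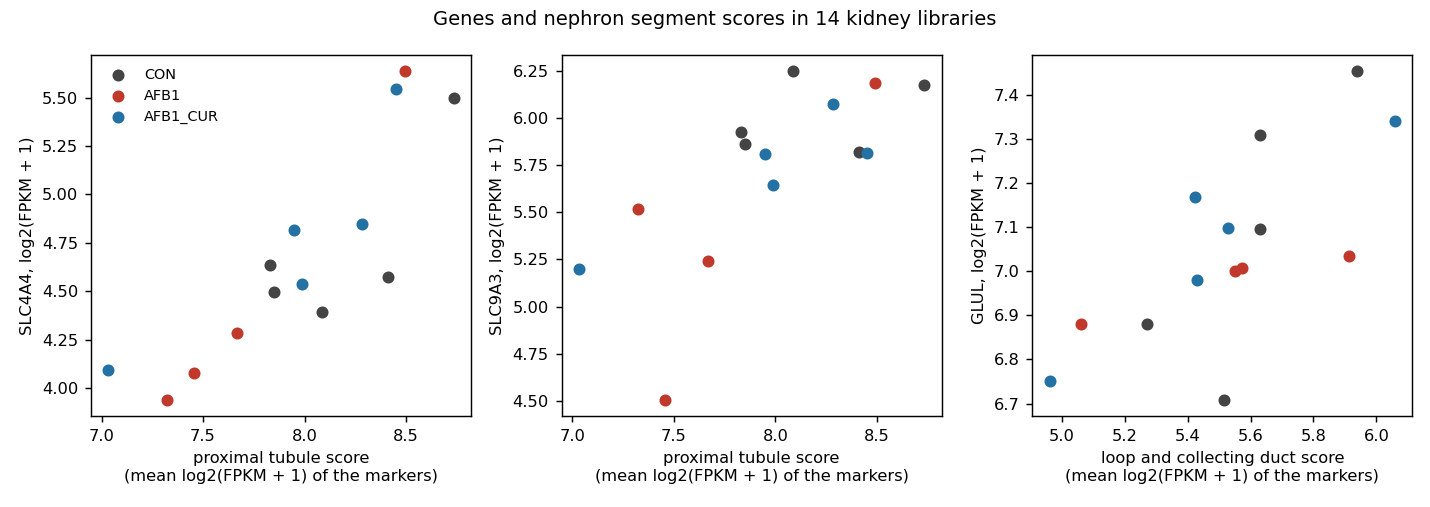
log2(FPKM + 1) of SLC4A4, SLC9A3 and GLUL (y axes) against the mean log2(FPKM + 1) of the proximal tubule or of the loop and collecting duct markers (x axes); points are the 14 kidney libraries, coloured by group. r is 0.86, 0.73 and 0.73 from left to right, and AFB1 replicates 2, 3 and 4 lie at the lower left for SLC4A4 and SLC9A3.

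Ratios within a library do not depend on the scaling between libraries, so 3 of them were compared, 9 tests in all. The FPKM ratio of GLUL to GLUD1, the ammonia-binding to the ammonia-releasing enzyme, was 0.64 to 2.19 in CON, 0.33 to 1.43 in the 4 kidney libraries of AFB1 and 0.82 to 1.22 in AFB1_CUR. AFB1 replicate 5 had the lowest ratio of the kidney libraries, and the log2 difference of AFB1 from CON was -0.33 (two-sided exact permutation p = 0.540). The ratio of SLC4A4 to SLC9A3, the basolateral to the luminal step, was 0.27 to 0.62 in CON, 0.32 to 0.73 in AFB1 and 0.42 to 0.83 in AFB1_CUR, and the log2 difference of AFB1 from CON was 0.41 (exact permutation p = 0.246) and 1.41 with the liver-like library. The ratio of CA4 to CA2 was 0.10 to 0.17 in CON, 0.10 to 0.14 in AFB1 and 0.11 to 0.18 in AFB1_CUR, with the largest difference, 0.30, between AFB1_CUR and AFB1 (exact permutation p = 0.151). No ratio differed beyond the spread between libraries, and the smallest adjusted p of the 9 tests was 0.762. With 4 libraries against 5 the smallest p that the test allows is 0.00794.

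Other genes of the pathway were set beside these 7, from lists of which some members were absent or too low to test. Among genes of ammonia formation 0 of the 11 tested were called in any of the 3 comparisons, where 1.76%, 0.935% and 1.63% of all genes tested were called, and PCK1 (CON mean 1004 ± 345, SD, n = 5), the citric acid cycle subunit OGDH (138 ± 18.7) and the neutral amino acid transporter SLC6A19 (92.7 ± 12.7) were the most abundant by FPKM. Beside the same shares of all genes tested, 0 of 5 genes of ammonia transport were called, including the loop cotransporter SLC12A1 (95.1 ± 41.4), which can carry ammonium, and the ammonia channel RHCG of the collecting duct (41.6 ± 14.3). Of 5 further carbonic anhydrases 0 were called beside these 1.76%, 0.935% and 1.63%, among them CA12 (21.1 ± 8.91), CA3 (12.1 ± 3.67) and CA13 (7.09 ± 3.09). Of 11 intercalated cell genes, which secrete acid or bicarbonate in the collecting duct, 0 were likewise called beside 1.76%, 0.935% and 1.63% of all genes, including the proton pump subunits ATP6V1B1 (191 ± 33.3) and ATP6V0A4 (21.9 ± 8.59) and the exchanger SLC4A9 (44.2 ± 12.7). The median log2 fold change of the intercalated cell genes was 0.29 in AFB1 against CON, with 9 of 11 above 0, -0.30 in AFB1_CUR against AFB1, with 1 of 11 above 0, and -0.07 in AFB1_CUR against CON, with 2 of 11 above 0. Over all genes tested the medians were 0.016, 0.00032 and -0.0029, and 53.4%, 50.1% and 49.5% of genes were above 0. In the same order of comparisons, 3, 0 and 0 of 5 ammonia transport genes were above 0, and 5, 4 and 3 of 11 ammonia formation genes. Of the 5 further carbonic anhydrases 1, 2 and 2 were. In the lists treated below, these were 6, 7 and 5 of 13 proximal bicarbonate genes, and 6, 6 and 7 of 9 genes of acid sensing and control. Each pair of comparisons shares a group of libraries.

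Of 13 proximal genes that act with bicarbonate reclamation, 1 was called lower in AFB1 than in CON, where 1.11% of all genes tested were called lower, and 0 in the other 2 comparisons. It was SLC26A6, an anion exchanger of the brush border that can carry chloride, oxalate and bicarbonate. Its FPKM was 4.10, 2.85, 2.87, 2.26 and 2.86 in CON replicates 1 to 5, and 2.36, 1.85, 2.26 and 1.34 in AFB1 replicates 2 to 5. The groups overlapped by CON replicate 4 and AFB1 replicate 2, and AFB1 replicate 5, the highest library for 5 of the 7 genes, had the lowest value of all kidney libraries. The log2 fold change was -0.63 (SE 0.19, edgeR, unadjusted p = 0.00598, adjusted p = 0.957), and the fold fell under 1.5 without CON replicate 1 (-0.48) or AFB1 replicate 5 (-0.52). The scaffolds PDZK1 (385 ± 152, CON mean and SD, n = 5) and NHERF1 (331 ± 46.7), which bind SLC9A3 at the brush border, and the membrane linker EZR (202 ± 9.22) were not called.

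Of 9 genes that sense acid or control these transporters, EDNRB, the endothelin B receptor, was called higher in AFB1_CUR than in CON, where 1.05% of all genes tested were called higher, and 0 were called in the other 2 comparisons. Its FPKM was 4.86, 7.79, 5.65, 3.85 and 6.79 in CON replicates 1 to 5 and 7.68, 12.5, 7.80, 10.3 and 9.43 in AFB1_CUR replicates 1 to 5. CON replicate 2 lay just inside the AFB1_CUR range and all other CON libraries below it. The log2 fold change was 0.65 (SE 0.22, edgeR, unadjusted p = 0.0103, adjusted p = 0.823), and 0.55, under a fold of 1.5, without CON replicate 4. AFB1_CUR replicate 2, the library with the highest leukocyte score, was also the highest for EDNRB, and without both leukocyte-rich libraries the value was 0.59 and still called. CRYZ (202 ± 55.9), the kinase SGK1 (48.9 ± 5.75) and the RNA-binding protein ELAVL1 (22.3 ± 3.05) were not called.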

How the data were processed

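RNA of 15 sheep samples labelled kidney was prepared with oligo(dT) beads and a stranded kit and sequenced as paired reads. Per the labels the authors trimmed reads with cutadapt 1.9, aligned them with HISAT2 2.2.1 and used StringTie 2.1.6. The authors deposited a read count and an FPKM per gene and library; neither the counting tool nor the genome build is given in the sources used here. Of the 25592 symbols, 24947 matched a RefSeq gene table (ARS-UI_Ramb_v3.0), used only to name chromosomes. Libraries were grouped by their titles, since the treatment field counts upward within a group. Nothing in the labels ties replicate numbers across groups.

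The deposited counts were fitted with edgeR 4.0.16 in R 4.3.3 (TMM, quasi-likelihood test) over the 3 groups together, without AFB1 replicate 1, for genes that reached an FPKM of 1 in 5 or more libraries. A call needed a fold change over 1.5 and an unadjusted p under 0.05, with Benjamini-Hochberg values beside them. Standard errors are the log2 fold change divided by the square root of its F statistic. The script was tested on simulated data. Alternatives were DESeq2 1.42.0, limma 3.58.1 on log2(FPKM + 1) or log2(FPKM + 0.1), RLE scaling, no filter, all 15 libraries, only the groups compared, a replicate block, a proximal tubule score as covariate and each library left out. Levels, correlations and marker scores used log2(FPKM + 1), and ratios FPKM.

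All 7 genes are named. Of each pathway list the called genes are named, and at most 3 of those not called, by CON mean. For each of the 7, the 3 genes with the highest r are named. A few genes that these rules name are not reported here. The genes, lists and rules were chosen with earlier results of these data known. The labels do not say which libraries come from sheep of 1 pen, so p values measure the spread between these libraries.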

Additional observations from a re-analysis of the deposited data

Results flagged for a closer look

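In groups of 4 or 5 libraries, the gap between the highest or lowest library and its nearest neighbour was set against the range of the group (Dixon's test at 95%). By chance this marks about 1 in 20 groups where groups are independent and values normally distributed. The groups here share libraries and genes, so that rate is no yardstick for the count. Of 40 groups and quantities tested, 5 were marked, among them the liver-like library, which had been set apart beforehand. SLC4A4 was highest in CON replicate 5, at an FPKM of 44.1 against 20.0 to 23.8 in the other CON libraries, which also had the highest proximal tubule score (8.73). SLC4A4 was likewise highest in AFB1 replicate 5, at 48.8 against 14.3 to 18.5 in the other 3 kidney libraries of AFB1, where the score was 8.49 against 7.32 to 7.67. CA4 was highest in AFB1_CUR replicate 3, at 111 against 66.4 to 78.7. The FPKM ratio of SLC4A4 to SLC9A3 was highest in AFB1_CUR replicate 1, at 0.828 against 0.418 to 0.494 in the other AFB1_CUR libraries. Among all 5 AFB1 libraries, the same ratio was 16.8 in the liver-like AFB1 replicate 1 against 0.321 to 0.733 in the others, from 22 counts of SLC9A3 and 1107 of SLC4A4. What set these libraries apart was not tested.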

How the results depend on the processing

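The order of levels kept its 5 passing steps of 6 in every alternative run. Called genes of the 7 in AFB1 against CON numbered 0, where 1.76% of all genes tested were called. The count was 1 with all 15 libraries (SLC38A3, 1.42, beside 4.84% of all genes). It was also 1 with limma on either pseudocount (SLC9A3, -0.65 and -0.66, beside 0.798% and 1.53%). Leaving out both leukocyte-rich libraries, chosen after seeing the data, gave 1 (SLC38A3, 0.85, beside 1.94%). With the proximal tubule score as covariate it was 2 (GLUD1, 0.67, and SLC38A3, 0.81), beside 338 of 13162 genes (2.57%). With a library left out it was 0 to 1, beside 1.55% to 3.46%. Without AFB1 replicate 2 or 4, SLC38A3 was called (0.84 and 0.82), beside 1.69% of all genes in each fit. Without AFB1 replicate 5, SLC9A3 was called, beside 3.46%. In AFB1_CUR against AFB1 the count was 1, beside 0.935% of all genes, and 2 with all 15 libraries, beside 3.98%. With a library left out it was 1 to 2. It was 2 without AFB1 replicate 2, beside 2%, and without AFB1 replicate 5, beside 1.68%. In AFB1_CUR against CON it was 0 in every alternative, beside 0.608% to 3.65%.

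Over all genes, 232, 123 and 214 were called in the 3 comparisons. All 15 libraries gave 639, 525 and 131, limma on log2(FPKM + 1) 105, 81 and 80, and no filter 867, 707 and 928. The proximal tubule covariate gave 338, 236 and 171. Leaving out both leukocyte-rich libraries gave 207 there and 115 against CON. With single libraries left out the counts ran from 204 to 454, 119 to 261 and 115 to 305. The 454 of AFB1 against CON came without AFB1 replicate 5, which gave 221 in AFB1_CUR against AFB1. The 261 came without AFB1 replicate 2, and without AFB1_CUR replicate 2 AFB1_CUR against AFB1 gave 193 and AFB1_CUR against CON 115. The balance of higher and lower calls also turned in some alternatives. For AFB1_CUR against AFB1, limma on log2(FPKM + 0.1) called 78 genes higher and 56 lower, where edgeR called 54 and 69. Without AFB1 replicate 2, edgeR called 148 and 113 there. For AFB1 against CON, 86 higher and 146 lower became 506 and 133 with all 15 libraries. For AFB1_CUR against CON, 138 and 76 became 48 and 67 without AFB1_CUR replicate 2.

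Same-numbered libraries did not pair throughout. Over 13 pairs the correlation of deviations from the group means ran from -0.31 to 0.60 and was over 0.1 in 7. Of 14 libraries, 4 correlated best with their own number. Among the replicate 2 libraries r was 0.60 (AFB1 with AFB1_CUR), 0.44 (CON with AFB1_CUR) and 0.40 (CON with AFB1). Between different numbers r ran from -0.60 to 0.44. Whether a shared factor joins the replicate 2 libraries was not tested. With the replicate block 0, 1 and 0 of the 7 genes and 228, 150 and 282 of all genes were called.

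Correlated pairs numbered 7, 5 with all 15 libraries, where 4 of the 7 turned negative, 8 with group means removed, 0 with Spearman's rho, 0 without both leukocyte-rich libraries, and 0 to 7 with a library left out. Segment relations numbered 3, 7 with all 15 libraries, 7 with group means removed, 6 without both leukocyte-rich libraries, and 2 to 9 with a library left out.

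Directions turned only for values that were called in neither setting. In AFB1 against CON, SLC4A4 turned with the proximal tubule covariate (0.30) and without both leukocyte-rich libraries (0.15), and CA2 (-0.043) and CA4 (-0.16) with all 15 libraries. In AFB1_CUR against AFB1, GLUL (-0.034) and CA4 (0.15) turned with all 15 libraries and SLC4A4 with the covariate (-0.025). In AFB1_CUR against CON, GLUD1 and CA4 turned with limma on log2(FPKM + 1) (0.021 and 0.065) and on log2(FPKM + 0.1) (0.021 and 0.066), with the covariate (0.17 and 0.087) and without both leukocyte-rich libraries (0.026 and 0.079), the last turning GLUL too (0.024). With a library left out, AFB1 against CON ran from -0.25 to 0.64 for GLUD1, -0.043 to 0.84 for SLC38A3, -0.75 to 0.19 for SLC4A4 and -0.13 to 0.33 for CA4. AFB1_CUR against AFB1 ran from -0.73 to 0.16 for GLUD1, -0.022 to 0.15 for GLUL, -0.18 to 0.78 for SLC4A4, -0.035 to 0.61 for SLC9A3 and -0.35 to 0.12 for CA4. AFB1_CUR against CON ran from -0.25 to 0.044 for GLUD1, -0.17 to 0.020 for GLUL, -0.26 to 0.29 for SLC4A4 and -0.16 to 0.13 for CA4. Of the log2 ratios, GLUL to GLUD1 ran from -0.61 to 0.093, -0.14 to 0.57 and -0.21 to 0.23 in the 3 comparisons, SLC4A4 to SLC9A3 from -0.30 to 0.10 in AFB1_CUR against AFB1, and CA4 to CA2 from -0.19 to 0.0058 in AFB1 against CON. The causes of these changes were not tested.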

Other observations

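For each of the 7 genes, up to 3 tested genes most like it over the 14 kidney libraries were taken by Pearson's r of log2(FPKM + 1), as a description; all points share their libraries and the makeup of the tissue piece. SLC4A4 had the closest, PNPLA8 (r = 0.95, rho = 0.89), RAB3GAP2 (r = 0.94, rho = 0.93) and ADGRL3 (r = 0.94, rho = 0.84). SLC9A3 was followed by ZHX3 (r = 0.92, rho = 0.80), FBXO31 (r = 0.88, rho = 0.82) and LOC101108756 (r = 0.88, rho = 0.81). GLUD1 was followed by TPMT, thiopurine methyltransferase (r = 0.91, rho = 0.81), CPPED1 (r = 0.91, rho = 0.76) and MGST2, a microsomal glutathione transferase (r = 0.90, rho = 0.82). For CA2 they were BLVRA, biliverdin reductase (r = 0.88, rho = 0.91), LOC106990150 (r = 0.88, rho = 0.83) and GHITM (r = 0.85, rho = 0.80), and for CA4 LOC101118641 (r = 0.87, rho = 0.80), ANKRD9 (r = 0.85, rho = 0.82) and FAM110C (r = 0.85, rho = 0.83). GLUL had IL11RA (r = 0.82, rho = 0.81), CATSPER4 (r = 0.80, rho = 0.81) and SOX7 (r = 0.80, rho = 0.91). SLC38A3 had RASL12 (r = 0.85, rho = 0.81) and SLC51B (r = 0.75, rho = 0.34), the latter with a much lower rank correlation. None of the 7 genes appeared among the 3 closest of another.

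CA12, a membrane-bound carbonic anhydrase, and CA3, a cytosolic one, were also highest in AFB1 replicate 5, at an FPKM of 39.0 against 6.39 to 33.96 and of 21.3 against 4.22 to 20.2 in the other 13 kidney libraries. Over the 54 tested genes of the other pathway lists, that library held the highest value of 6, and AFB1_CUR replicate 2, which held the highest value of 34.5% of all genes tested, that of 8. In the liver-like library CA3 was at 140, and CA12 and CA13 were listed at 0.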
